A study of Mus musculus with 10 samples.

Results

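The genes described here were named in the list of ARID2-enriched transcription start sites (TSSs) at P28 and had no row under the same symbol in the list at P28.5. They were chosen from these lists, so their number is a description and was not tested. There were 2124 such genes, 51.9% of the 4095 gene names at P28, and they held 5060 of the 11553 P28 rows and 3180 of the 7144 distinct P28 positions. The other 1971 P28 names were also named at P28.5, and 736 names were found at P28.5 only. Of the 2124 symbols, 2064 matched an annotated gene as written, 54 through a synonym and 6 not at all.

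The libraries came from spermatogenic cells of CD1 mice whose spermatogenesis had been synchronized. All animals at both ages received WIN 18,446, an inhibitor of retinoic acid synthesis, by gavage from P1 to P10 at 100 µg per g of body weight, and 1 subcutaneous dose of 10 µl retinoic acid at 10 µg/µl on P11. P28 was thus 17 days and P28.5 was 17.5 days after retinoic acid, and the cells isolated were enriched for late prophase I and metaphase spermatocytes. The study reported more round spermatids and a markedly lower proportion of leptotene and zygotene cells at P28.5 than at P28. Age and cell composition thus cannot be told apart in these lists. CUT&RUN, in which an antibody-tethered nuclease releases fragments of chromatin for sequencing, was done with 2 ARID2 libraries at each age, beside 2 BRG1 libraries and 1 library without primary antibody, which entered no comparison here. Each list was made by the authors from the average of both ARID2 libraries of that age, so that the lists hold no spread between replicates, the error of single positions is unknown, and P28 and P28.5 were set side by side as lists. A row held only a coordinate and a symbol, without strand, signal or score. A gene was counted as missing at P28.5 by its symbol alone, and the size of any change was not measured.

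ARID2 is the subunit that defines PBAF, one of the assemblies of the SWI/SNF chromatin remodeler, which uses the energy of ATP to move or evict nucleosomes. Many mammalian promoters lie in CpG islands, stretches in which the CpG dinucleotide has escaped the depletion seen elsewhere in the genome, and genes used in most cell types often start in them. Genes restricted to 1 tissue more often start in sequence with few CpGs. In spermatocytes, prophase I is followed by metaphase I, when spindle, kinetochore and centrosome proteins act on the paired homologs.

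Promoters of 8 P28-only genes are shown first, chosen to span the range of CpG content among listed starts. Each window is from RefSeq on GRCm38.p6, runs 5′ to 3′ from 250 bases before to 50 bases after an annotated 5′ end, and has every CpG in capitals. Cenpe encodes a kinetochore motor, Ttk the checkpoint kinase MPS1, Plk4 the kinase of centriole duplication, Rec8 the meiotic kleisin of cohesin and Brd9 a subunit of the non-canonical BAF complex. Dnmt3l encodes the cofactor of the de novo DNA methyltransferases, Catsperb an auxiliary subunit of the sperm calcium channel and Slc17a2 a phosphate transporter.
Cenpe, chr3:135212313-135212612, plus strand: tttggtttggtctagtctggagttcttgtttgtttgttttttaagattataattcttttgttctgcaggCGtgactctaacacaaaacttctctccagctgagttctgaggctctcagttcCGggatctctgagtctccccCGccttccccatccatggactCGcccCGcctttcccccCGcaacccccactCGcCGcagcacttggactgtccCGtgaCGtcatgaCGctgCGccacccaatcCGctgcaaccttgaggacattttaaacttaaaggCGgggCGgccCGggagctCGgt
Ttk, chr9:83834439-83834738, plus strand: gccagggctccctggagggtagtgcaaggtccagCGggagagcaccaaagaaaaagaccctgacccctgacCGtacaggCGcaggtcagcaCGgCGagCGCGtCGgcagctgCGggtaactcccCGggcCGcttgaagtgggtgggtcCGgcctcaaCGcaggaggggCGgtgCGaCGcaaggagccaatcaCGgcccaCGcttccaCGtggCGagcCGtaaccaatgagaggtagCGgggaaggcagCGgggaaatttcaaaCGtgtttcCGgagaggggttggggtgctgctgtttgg
Plk4, chr3:40799701-40800000, plus strand: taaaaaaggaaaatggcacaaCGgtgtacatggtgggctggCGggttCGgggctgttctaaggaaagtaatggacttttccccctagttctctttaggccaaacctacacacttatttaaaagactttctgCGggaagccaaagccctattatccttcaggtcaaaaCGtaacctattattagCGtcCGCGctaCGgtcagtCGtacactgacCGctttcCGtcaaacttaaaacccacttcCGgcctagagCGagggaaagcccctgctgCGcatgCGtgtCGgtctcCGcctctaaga
Rec8, chr14:55617916-55618215, plus strand: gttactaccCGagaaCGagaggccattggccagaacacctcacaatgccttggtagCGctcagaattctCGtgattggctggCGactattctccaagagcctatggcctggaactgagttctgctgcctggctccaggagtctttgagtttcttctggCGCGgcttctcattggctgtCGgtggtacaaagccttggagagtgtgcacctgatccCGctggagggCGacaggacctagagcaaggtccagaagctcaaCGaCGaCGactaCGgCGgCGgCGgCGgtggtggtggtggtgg
Brd9, chr13:73937561-73937860, plus strand: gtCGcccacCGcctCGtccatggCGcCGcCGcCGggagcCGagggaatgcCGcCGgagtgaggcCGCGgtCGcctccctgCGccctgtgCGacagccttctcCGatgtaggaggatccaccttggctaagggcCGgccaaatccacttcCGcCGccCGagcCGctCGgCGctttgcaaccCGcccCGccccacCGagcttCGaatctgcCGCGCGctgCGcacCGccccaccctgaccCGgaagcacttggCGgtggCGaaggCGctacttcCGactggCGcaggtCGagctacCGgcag
Dnmt3l, chr10:78055085-78055384, plus strand: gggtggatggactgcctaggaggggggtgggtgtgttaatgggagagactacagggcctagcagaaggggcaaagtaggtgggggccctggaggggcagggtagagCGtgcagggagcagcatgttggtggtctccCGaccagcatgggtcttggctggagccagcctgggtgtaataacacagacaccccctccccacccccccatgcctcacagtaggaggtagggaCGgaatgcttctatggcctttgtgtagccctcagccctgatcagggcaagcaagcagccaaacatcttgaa
Catsperb, chr12:101404423-101404722, plus strand: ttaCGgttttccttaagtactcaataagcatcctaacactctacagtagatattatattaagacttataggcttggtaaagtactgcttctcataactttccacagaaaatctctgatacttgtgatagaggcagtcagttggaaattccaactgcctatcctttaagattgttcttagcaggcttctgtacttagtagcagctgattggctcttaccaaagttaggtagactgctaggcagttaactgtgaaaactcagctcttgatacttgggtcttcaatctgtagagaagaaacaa
Slc17a2, chr13:23806743-23807042, plus strand: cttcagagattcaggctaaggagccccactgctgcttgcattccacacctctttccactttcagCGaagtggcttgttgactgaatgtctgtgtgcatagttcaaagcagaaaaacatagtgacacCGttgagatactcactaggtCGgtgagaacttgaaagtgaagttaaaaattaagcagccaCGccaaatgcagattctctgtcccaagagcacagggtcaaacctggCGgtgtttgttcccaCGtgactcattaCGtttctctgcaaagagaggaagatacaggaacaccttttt

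The windows of Brd9, Ttk, Plk4, Rec8 and Cenpe held 40, 25, 18, 18 and 17 CpGs, whereas those of Slc17a2, Dnmt3l and Catsperb held 7, 3 and 1. The listed position coincided with the annotated 5′ end of the window for 6 of these genes, and lay 171 bases from it for Rec8 and 51 bases from it for Slc17a2. Rec8 was listed at 55617995, 7 bp from the nearest of its other annotated 5′ ends.

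For other members the listed position was not an annotated start but the lower coordinate of a minus-strand gene, which is its 3′ end. Tnp1, the gene for transition protein 1 that replaces histones in spermatids, occupies chr1:73015074-73015899 and is read from the minus strand, and its single row was at 73015074, the 3′ end. Olfr1085, an odorant receptor gene at chr2:86657515-86658456 and also on the minus strand, was likewise listed at 86657515. Both genes are short, and these rows lay 825 bp (Tnp1) and 941 bp (Olfr1085) from the 5′ end of the gene. Most positions of this kind lay farther from a start: 141 of 651 had any 5′ end within 2000 bp. The 200 bases that follow each 3′ end, on the strand of the gene, are given from the same assembly with CpG in capitals, as the sequence next to positions of this kind. They held 2 CpGs for Tnp1 and 1 for Olfr1085.
Tnp1, chr1:73014874-73015073, minus strand: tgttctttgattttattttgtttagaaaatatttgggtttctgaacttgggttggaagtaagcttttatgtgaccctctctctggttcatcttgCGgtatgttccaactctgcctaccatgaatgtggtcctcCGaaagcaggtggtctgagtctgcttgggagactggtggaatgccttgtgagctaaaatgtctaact
Olfr1085, chr2:86657315-86657514, minus strand: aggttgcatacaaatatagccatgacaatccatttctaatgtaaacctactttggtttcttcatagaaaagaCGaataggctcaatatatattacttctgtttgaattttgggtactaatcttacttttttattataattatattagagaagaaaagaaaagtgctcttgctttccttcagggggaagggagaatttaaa

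The position of each row was compared with annotated transcript ends, to see what the P28-only rows marked. Of 3180 positions, 1239 (39.0%) were the 5′ ends of transcripts on the plus strand and 651 (20.5%) were 3′ ends on the minus strand, while 1288 (40.5%) equalled no annotated end, 2 equalled a minus-strand 5′ end and 0 a plus-strand 3′ end. A position that matched a transcript was thus nearly always its lower coordinate, on either strand. The same held in the other groups, where 1 of 3964 positions (both ages) and 1 of 1257 (P28.5 only) equalled a minus-strand 5′ end. The annotation holds 10871 protein-coding genes on the plus strand and 10903 on the minus strand. Whether the table of starts behind the lists took strand into account is not given in the sources used here, so ARID2 enrichment at a 3′ end and a start entered by its lower coordinate cannot be told apart in these rows. Among positions of genes named at both ages, the minus-strand 3′ ends made up 2.07% (95% Wilson interval 1.67% to 2.56%, as for all intervals here, which cover counting error only), and among those named at P28.5 only 2.31% (1.61% to 3.29%). An annotated 5′ end of any gene was found within 2000 bp of 76.6% of P28-only positions (75.1% to 78.0%), of 98.1% (97.6% to 98.5%) for both ages and of 98.8% (98.0% to 99.3%) for P28.5 only. The lists defined the groups and positions of 1 gene can lie close together, so these intervals are a description and no test. Of the P28-only positions that equalled no annotated end, 1054 (81.8%) still had a 5′ end within 2000 bp, and for 774 of these it was within 100 bp.

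**Figure D1:**
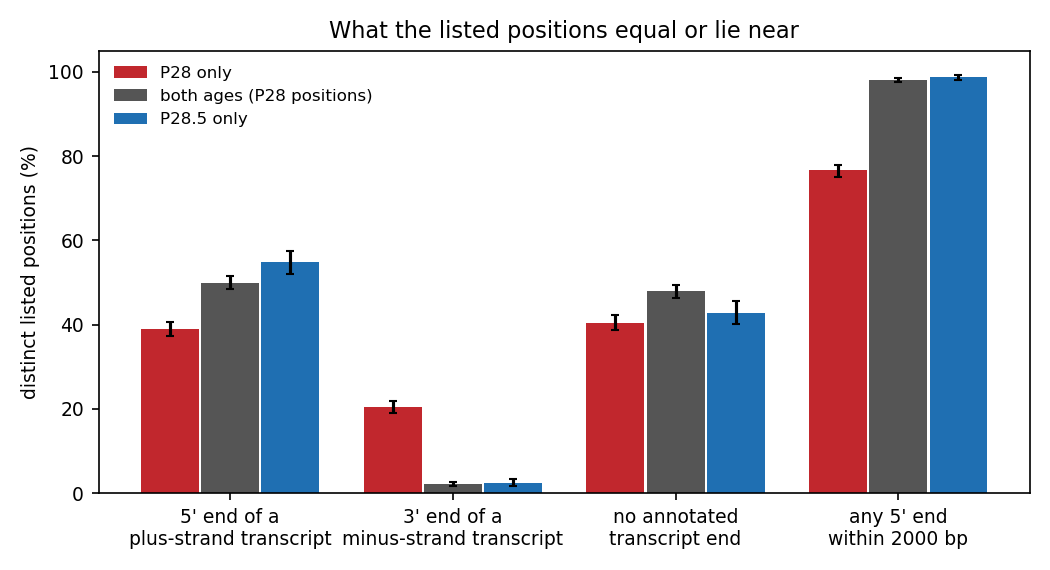
Share of distinct listed positions (%, y axis) that equalled a plus-strand 5′ end, a minus-strand 3′ end or no annotated transcript end, and share with any annotated 5′ end within 2000 bp, for genes named at P28 only, at both ages and at P28.5 only; error bars are 95% Wilson intervals. Minus-strand 3′ ends made up 20.5% of P28-only positions against 2.07% and 2.31% in the other groups.

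The minus-strand 3′ ends were seldom beside another start. Of the 651, 141 (21.7%) had a 5′ end of any gene within 2000 bp, and all 651 lay inside an annotated gene body, which for all P28-only positions was 91.9%. In 243 cases the row carried the symbol of the gene whose 3′ end was listed and that gene also had the nearest 5′ end, and in 65 it carried that symbol while another gene had the nearest 5′ end. The row carried the name of another gene with the nearest 5′ end in 186 cases and neither name in 157.

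**Figure D2:**
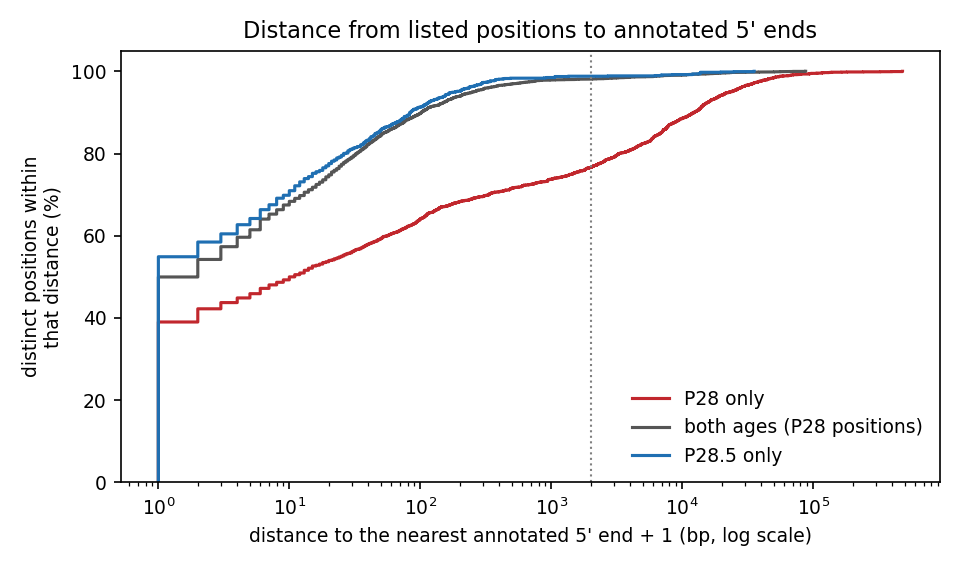
Cumulative share of distinct listed positions (%, y axis) by distance to the nearest annotated 5′ end plus 1 (bp, log scale, x axis) in each group of genes; the dotted line marks 2000 bp. The curve for P28 only reaches 76.6% at the line and the other curves 98.1% and 98.8%.

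By gene, 1258 of the 2124 names (59.2%, 57.1% to 61.3%) had a row within 2000 bp of their own 5′ end that was not a minus-strand 3′ end. These are called own-start genes, a division made after the positions had been seen. A further 183 (8.62%) were listed near the 5′ end of another gene, 527 (24.8%) at a minus-strand 3′ end and 156 (7.34%) at neither. Among genes named at both ages, 1886 of 1971 (95.7%, 94.7% to 96.5%) were own-start genes.

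This division differed by strand, as the matched ends were nearly all lower coordinates, and the strand shares that follow cannot be told apart from how the table of starts was made. Of 1217 plus-strand protein-coding members 1012 (83.2%) were own-start genes, and of 598 minus-strand members 113 (18.9%) were, with 333 (55.7%) at a minus-strand 3′ end. As a share of the annotated protein-coding genes on each strand, the members were 11.2% on the plus strand and 5.48% on the minus strand. The same shares were 14.8% and 2.14% for both ages, and minus-strand genes were 32.9% of the P28-only protein-coding names. Counted by a P28 position within 2000 bp of a 5′ end of the gene and no P28.5 position there, whatever the name, 6.37% of protein-coding genes were P28 only.

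Protein-coding genes made up 1815 of the members (85.5%), on 1814 distinct genes, and they were 8.33% of the 21774 protein-coding genes annotated, which is the background for the gene lists that follow. Genes named at both ages were 8.48% and those at P28.5 only 3.13% of the protein-coding genes. There were also 197 lncRNA genes (1.56% of those annotated), 71 microRNA genes (5.78%), 21 transcribed pseudogenes (4.40%) and 11 snoRNA genes (0.827%). Among genes named at both ages the lncRNA share was 0.720% and the microRNA share 1.47%. Of the microRNA members 33 (46.5%) were listed at a minus-strand 3′ end and 23 (32.4%) near their own 5′ end, and of the lncRNA members 92 (46.7%) were own-start genes.

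Rows and positions per gene were few. Of the members 1176 (55.4%) had a single row and 1492 (70.2%) a single position, and the mean was 2.38 rows over 1.5 positions. Genes named at both ages had 3.29 rows over 2.01 positions at P28, with 38.0% at a single row. Where a member had more than 1 position, the positions spanned a median of 58 bp, and for 528 of 632 such genes they spanned no more than 1000 bp.

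Among the members with many rows, Zfp207, which encodes the kinetochore and spindle protein BuGZ, had 34 rows at 6 positions from 80383279 to 80383291 on chromosome 11, at its own start. BC051142 had 33 rows at 5 positions. Nrxn3, a neuronal adhesion protein, had 29 rows, and Pkd1, a large membrane protein of the primary cilium, had 25.

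Mir3093 had the most positions, 21 with 30 rows between them, from 88206617 to 88206788 on chromosome 3. They lay at least 8383 bp from the microRNA itself and within 115 bp of the 5′ end of Gm3764. Its mature arms, with the seed (bases 2 to 8) in capitals, are given from RefSeq because this gene had more listed positions than any other.
mmu-miR-3093-5p: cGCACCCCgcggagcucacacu
mmu-miR-3093-3p: uGUGGACAccgugggagguugg
The arms miR-7028-5p and miR-6911-5p from different members share a seed, as do miR-330-3p and miR-6240. No microRNA was measured here, and a row under such a name gives only a position.
mmu-miR-7028-5p: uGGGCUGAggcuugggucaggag
mmu-miR-6911-5p: uGGGCUGAgugggucuguggcau
mmu-miR-330-3p: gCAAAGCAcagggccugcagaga
mmu-miR-6240: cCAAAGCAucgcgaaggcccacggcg

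Own-start genes were at times listed at an internal start. Of 1125 protein-coding own-start members, 407 (36.2%, 33.4% to 39.0%) had annotated 5′ ends more than 2000 bp apart, and 160 (14.2%, 12.3% to 16.4%) were listed only at a position over 2000 bp from the outermost one. For genes named at both ages the second share was 6.24% (5.21% to 7.46%). Dnmt3l was listed 13048 bp into the gene, at the third of the starts for which RefSeq gives a window. Jmjd1c, a jumonji-domain protein with a role in spermatogenesis, was listed 89399 bp and Eml4, a microtubule-binding protein, 54159 bp from the outermost 5′ end. Rora, a nuclear receptor chosen after its value was seen, had the greatest such distance, 635014 bp.

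The distance to the P28.5 list was measured to see how many members were missing at P28.5 by name alone. The nearest P28.5 position, under any name, lay at a median of 189459 bp from the gene's own P28 positions (quartiles 65925 and 490040 bp). Of the 2124 members, 25 (1.18%, 0.799% to 1.73%) had a P28.5 position within 2000 bp and 425 within 50000 bp. For scale, the own 5′ ends of the 18035 autosomal protein-coding genes not named at P28.5 lay at a median of 184294 bp from the same list. The P28.5-only genes lay at a median of 91572 bp from the longer P28 list, with 26 of 736 (3.53%) within 2000 bp.

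**Figure D3:**
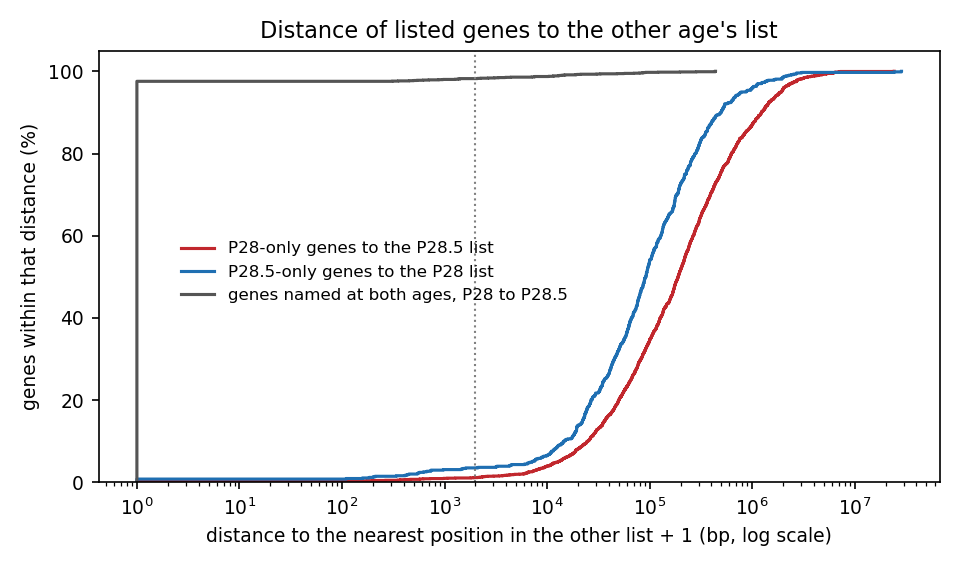
Cumulative share of genes (%, y axis) by distance from their listed positions to the nearest position in the list of the other age plus 1 (bp, log scale, x axis); the dotted line marks 2000 bp. Of the P28-only genes 1.18% lie left of the line, against 3.53% of the P28.5-only genes and 98.2% of the genes named at both ages.

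The 6 members whose position was also in the P28.5 list carried another name there. Borcs8, a subunit of the complex that moves lysosomes, was listed with 6 rows at 70139499 on chromosome 8, and at P28.5 that position was named Gm45929. Gm13272, Gm13287 and Gm13289, neighbouring gene models on chromosome 4, shared positions named Gm13285 or Gm13290 at P28.5. Gm20878 and the Y-linked RNA-binding protein gene Rbmy shared positions named Gm21586 and Gm21708, and Rbmy is a multicopy family.

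For the remaining 19 of the 25, the nearest P28.5 row had another name and lay between 77 and 1919 bp away. The examples, other than Setd5, were chosen after their values were seen. Myo9b, an unconventional myosin, was listed 95 bp from the position of Haus8, an augmin subunit that nucleates spindle microtubules. Pibf1, a centrosomal protein, lay 262 bp from that of Dis3, an exosome nuclease, and Orc4, of the origin recognition complex, 576 bp from that of Mbd5. Apaf1, the scaffold of the apoptosome, lay 348 bp from that of Ikbip, and Setd5, a SET-domain protein, 372 bp from that of Gt(ROSA)26Sor. At P28 itself, 15 members had a row of a gene named at both ages within 2000 bp. Measured from the annotated 5′ end of the member rather than from its rows, 51 of 2118 (2.41%) had a P28.5 position within 2000 bp, of which 36 were minus-strand and 15 plus-strand genes. Among all autosomal protein-coding genes not named at P28.5, a set that includes members, that share was 4.03%. The 2118 were members of every gene type and chromosome, so the shares are over unlike sets.

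The farthest from any P28.5 position was Astx6, a lncRNA gene of the X chromosome, at 24272639 bp. It was listed at its 3′ end and was the one matched member on that chromosome. Pkia, an inhibitor of protein kinase A, Zc2hc1a and Il7, which encodes a lymphoid cytokine, are neighbours on chromosome 3 and had the same nearest P28.5 gene, E2f5, at 7212067, 7075245 and 6966822 bp. Phf20l1, a methyl-lysine reader with 19 rows, lay 6512840 bp from the nearest.

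The CpG ratio, the observed number of CpGs over that expected from the base composition, was taken within 500 bp on either side of each position. Over own-start positions of the members the median was 0.669 (quartiles 0.415 and 0.786), and at minus-strand 3′ ends it was 0.227 (0.152 and 0.321). It was 0.221 near starts of other genes and 0.191 for positions at neither. For own-start positions of genes named at both ages the median was 0.799 (0.712 and 0.881), and at P28.5 only 0.797. A ratio of at least 0.6 was found at 61.2% of own-start member positions, against 92.7% for both ages and 91.0% for P28.5 only. Over the 5′ ends of all protein-coding genes the median was 0.516, so the own-start members lay between all genes and the genes named at both ages.

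**Figure D4:**
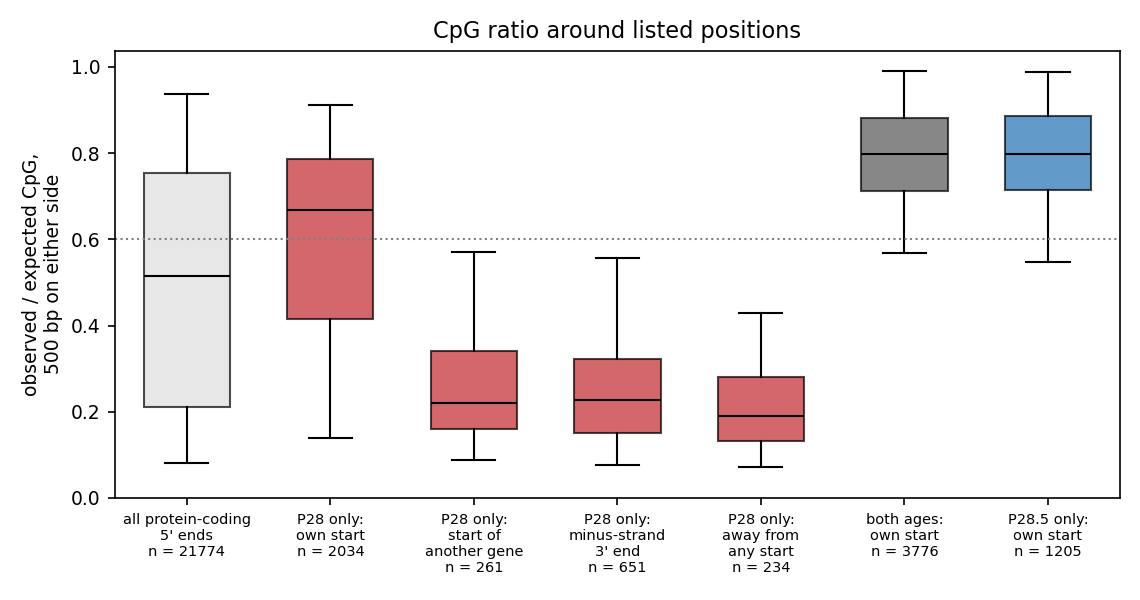
Observed over expected CpG within 500 bp (y axis) at the 5′ ends of all protein-coding genes and at listed positions by group and kind of position; boxes give quartiles and median, whiskers the 5th and 95th percentiles, and the dotted line a ratio of 0.6. The median falls from 0.669 at own-start positions of P28-only genes to 0.227 at minus-strand 3′ ends.

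When the protein-coding genes were divided into 5 quintiles of promoter CpG ratio, the share named at P28 only was 5.14% (4.53% to 5.84%), 7.35%, 9.53%, 10.8% and 8.86% (8.06% to 9.74%) from the lowest to the highest. It was highest in quintile 4, whereas the share named at both ages was highest in quintile 5, with 1.40%, 2.30%, 4.64% and 14.1% in the first 4 and 869 of 4355 genes in the last. With own-start members alone the P28-only shares were 2.48%, 4.06%, 5.93%, 7.74% and 5.63%. The members at a minus-strand 3′ end or at neither kind of end made up between 2.23% and 2.89% of the genes in each quintile.

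Short motifs were counted on both strands of 1 RefSeq promoter window per gene. The Sp/KLF box GGGCGG was in 57.2% of 925 windows of own-start members (54.0% to 60.3%), in 73.9% of those named at both ages (71.7% to 76.1%) and in 46.3% of all 17492 protein-coding windows. The CCAAT box was in 36.9%, 49.1% and 39.0% in that order, and the ETS motif CCGGAAGT in 7.35%, 10.8% and 5.29%. The TATA box TATAAA was in 8.97% of the member windows, 5.15% for both ages and 13.3% overall. The CRE palindrome TGACGTCA was in 2.70%, 4.42% and 2.34% and the E-box CACGTG in 9.51%, 12.2% and 7.90%. Over 551 windows of P28.5-only own-start genes CCAAT was in 37.6%, near the member share. In those windows GGGCGG was in 69.1%, CCGGAAGT in 12.2%, TATAAA in 5.44%, TGACGTCA in 5.99% and CACGTG in 13.4%. None of these motifs contains another. The member intervals held the share of all genes for CCAAT (33.8% to 40.0%), TGACGTCA (1.84% to 3.96%) and CACGTG (7.79% to 11.6%). No difference was tested, and the windows of all genes include those of the members. For the other motifs the member share lay between that of all genes and that of genes named at both ages.

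The members were then described by gene lists written from gene function or symbol, with 43 lists of protein-coding genes and 5 of RNA genes or unnamed models. In all, 864 members fell into at least 1 list. No enrichment was tested, and each share is set beside the 8.33% of all protein-coding genes named at P28 only and beside the share named at both ages. A share by name also depends on the strands of the genes in a list. With plus-strand genes alone the background was 11.2%. The share of 5 lists then lay outside the interval of their share by name, and that of 38 lists inside it. Many of these intervals were wide, so lists among the 38 could also rise. Kinetochore and checkpoint genes went from 3.85% to 10.0%, and piRNA and germ cell RNA genes from 18.9% to 28.6%. Of the 5 lists outside their interval, that of RNA polymerase, Mediator and general transcription factors went from 11.3% to 21.9%. Over the groups of lists the P28-only share ran from 5.19% to 9.93% and the share at both ages from 1.30% to 22.3%. Division lists together had 49 of 546 genes at P28 only (8.97%) against 22.3% at both ages, housekeeping lists 166 of 1687 (9.84%) against 18.1%, and chromatin lists 19 of 242 (7.85%) against 15.3%. Germline lists had 45 of 453 (9.93%) against 8.17%, membrane protein lists 136 of 2621 (5.19%) against 1.30%, and tissue lists 50 of 672 (7.44%) against 2.23%. Odorant and vomeronasal receptors were 1463 of the 2621 membrane genes, with 39 members (2.67%). The other membrane lists ran from 7.27% to 9.84%, around the share of all protein-coding genes. Lists of transcriptional regulators had 62 of 747 (8.30%) against 8.70%.

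**Figure D5:**
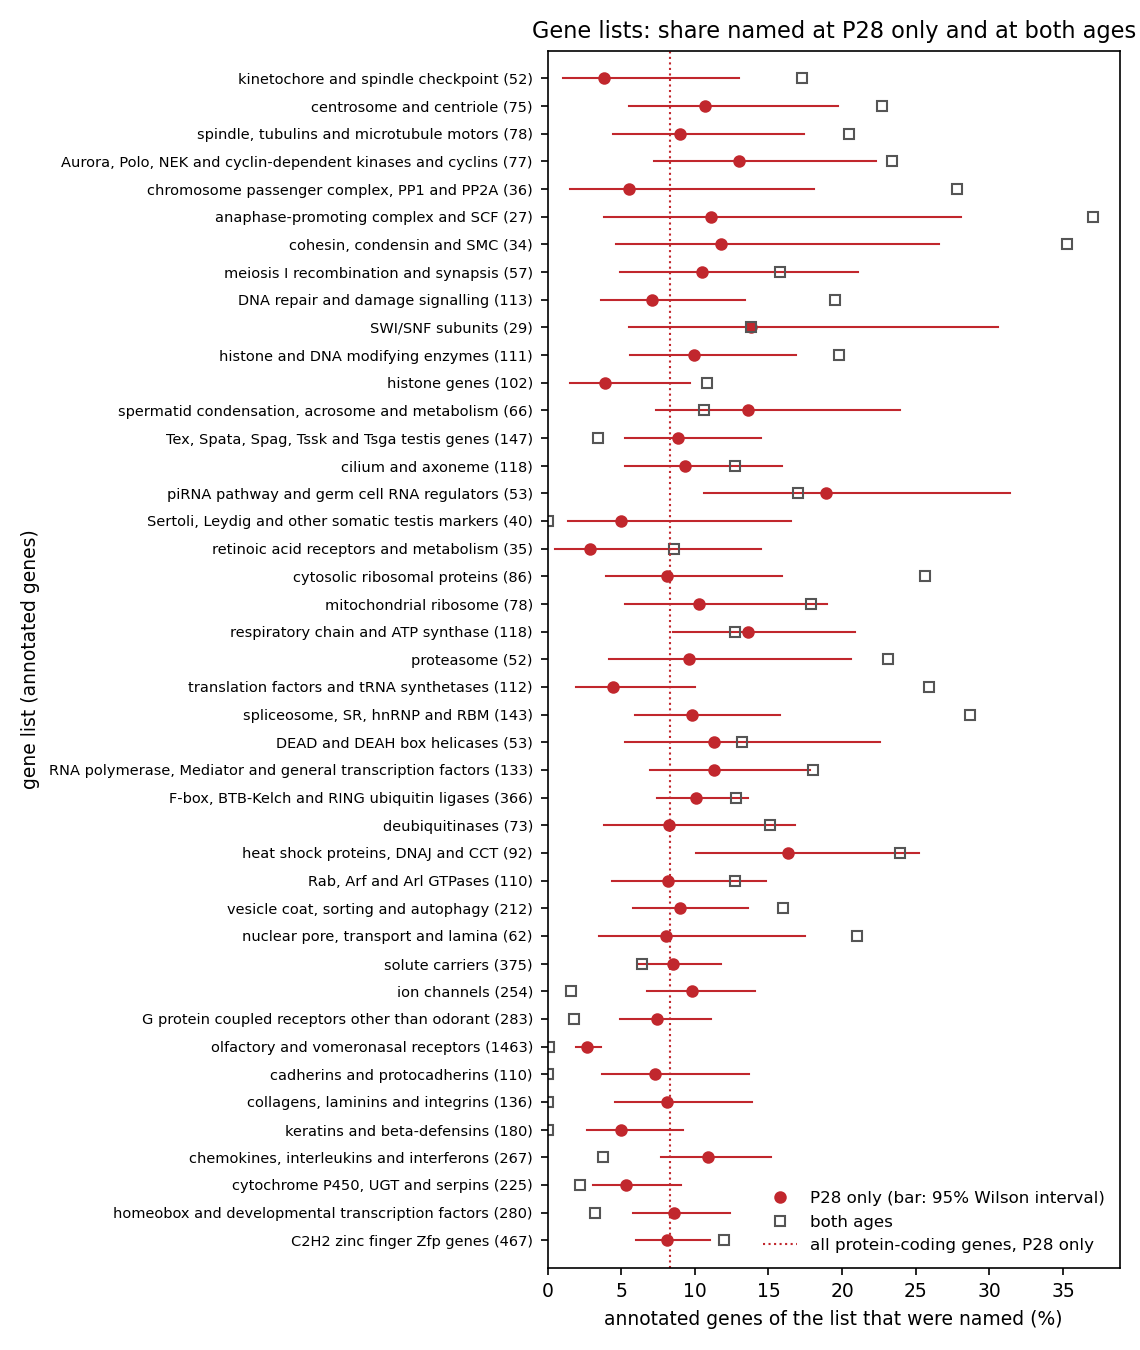
Share of the annotated genes of each list (%, x axis; number of genes in parentheses) named at P28 only (filled, with 95% Wilson interval) and at both ages (open squares); the dotted line is the 8.33% of all protein-coding genes named at P28 only. P28-only shares run from 2.67% for odorant and vomeronasal receptors to 18.9% for piRNA and germ cell RNA genes, while those at both ages run from 0% to 37.0%.

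Of the kinetochore and checkpoint list 2 of 52 genes were named at P28 only, Cenpe and Ttk, and 9 at both ages. Both are on the plus strand, where 2 of 20 genes of the list (10.0%) were members, beside 11.2% of all protein-coding genes there. Ttk was listed with 6 rows at 83834651, 83834652 and 83834689 on chromosome 9, and Cenpe with 1 row each at 135212537 and 135212563 on chromosome 3. Both lay at their own annotated start, with CpG ratios of 0.621 to 0.625 and of 0.727 and 0.733, and the nearest P28.5 positions were 90422 and 135430 bp away. Aurkb, the kinase of the chromosome passenger complex, was listed at 69045625 and 69045637 on chromosome 11, the latter its annotated 5′ end, and Borcs6 at 14138 bp was the nearest P28.5 gene. Tubg1, γ-tubulin, had rows at 101120068 and 101120131 on chromosome 11, within 49 bp of an annotated 5′ end. All of these positions had a CpG ratio above 0.6 within 500 bp.

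The centrosome and centriole list had 8 of 75 members (10.7%), of which 4 were own-start genes, and 17 at both ages. Plk4 had 3 rows at its 5′ end at 40799951 on chromosome 3 and 1 at 40799984, with a CpG ratio of 0.874 at the first. Cep89, a distal appendage protein of the centriole, and Rttn, a centriole assembly protein, were listed at their own starts. Tubgcp6, of the γ-tubulin ring complex, had 7 rows at 89123303 to 89123307 on chromosome 15. These were 3′ ends of transcripts on the minus strand and lay 95 to 99 bp from the 5′ end of Tubgcp6. Cep97, which caps centrioles, was listed 10487 bp from its 5′ end at a minus-strand 3′ end, Cep135 2426 bp and Cep68 5089 bp from theirs.

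All 7 members of the list of spindle proteins, tubulins and motors (8.97% of 78) were own-start genes. They were the mitotic kinesin Kif20b, Tube1 for ε-tubulin, the microtubule plus-end protein Clasp2, Eml4, the α- and β-tubulin genes Tuba1b and Tubb5, and Dync1li1 of cytoplasmic dynein. Kif20b had 5 rows at 3 positions within 6 bp of an annotated 5′ end, and the nearest P28.5 position was 1487352 bp away. Tubb5 lay closest, 2493 bp from a row named Mdc1.

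Kinases and cyclins of division had 10 of 77 (13.0%, 7.21% to 22.3%), with Cdk2, a cyclin-dependent kinase needed for meiosis, at 93 bp from its 5′ end and Cdkn1b, the inhibitor p27, at its 5′ end. Nek7, a mitotic kinase, was listed at its 3′ end, 135920 bp from its start. Pkmyt1, which phosphorylates CDK1, was listed 20033 bp from its start. The anaphase-promoting complex list had 3 members of 27, Espl1, Anapc1 and Anapc7, against 10 named at both ages. Espl1, which encodes separase, had 4 rows at 102296252 and 1 at 102296293 on chromosome 15. Anapc1, a scaffold subunit, was 350 bp from its 5′ end, and Anapc7 was 33880 bp from its own.

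Of genes of meiosis I, 6 of 57 (10.5%) were named at P28 only and 9 at both ages. Mei4, needed for meiotic double-strand breaks, had 1 row each at 81863647 and 81863744 on chromosome 9, the first 23 bp from its 5′ end. Cntd1, a crossover factor, Mcmdc2, which acts in strand exchange, and Spata22, a partner of MEIOB, were listed at annotated 5′ ends. Sycp2, of the axial element, had all 4 of its rows at 178345968 on chromosome 2, a minus-strand 3′ end, 49832 bp from its start and with a CpG ratio of 0.117. Helq, a repair helicase, was listed 9547 bp from its start.

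Cohesin, condensin and SMC genes had 4 of 34 at P28 only and 12 at both ages. Besides Rec8, which had 2 rows at 1 position with a CpG ratio of 0.461, Nsmce2, the SUMO ligase of the SMC5/6 complex, was at its own start. Nsmce3 and Smc5 of the same complex were listed 116944 and 36944 bp from theirs. DNA repair genes had 8 of 113 (7.08%), of which 7 were own-start genes: Ercc8, Mutyh, Fancl, Exo1, Lig1, Rad54b and Rad18. Exo1, an exonuclease of mismatch repair and meiotic resection, had 2 rows at 175880760 and 1 at its 5′ end at 175880778 on chromosome 1. Xpa was listed 6100 bp from its start.

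The SWI/SNF list had 4 members of 29 (13.8%, 5.50% to 30.6%) and as many at both ages. All 4 members are among its 15 plus-strand genes (26.7%, beside 11.2% of all plus-strand protein-coding genes). They were Brd9, Actl6b of the neuronal BAF complex, Bcl7a and the core subunit Smarcc1, all at their own starts. Brd9 had 12 rows at 7 positions from 73937811 to 73938089 on chromosome 13, with CpG ratios from 0.786 to 0.888. Actl6b had 8 rows at 4 positions, and Bcl7a and Smarcc1 had 1 row each.

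Histone and DNA modifying enzymes had 11 of 111 (9.91%) against 19.8% at both ages. Cbx2, a Polycomb protein, Wdr5, of the MLL complexes, L3mbtl2, Prmt3, Jmjd1c and Setd5 were own-start genes, as was Dnmt3l, whose 3 rows were at 78055335 on chromosome 10 with a CpG ratio of 0.175. Ehmt1, the H3K9 methyltransferase GLP, had 8 rows at 5709 bp or more from its start. Jmjd6, a jumonji hydroxylase, had 8 rows at its 3′ end, 6017 bp from its start. Of the histone genes, 4 (3.92%) were named at P28 only: Hist1h3b was 35 bp from its 5′ end, Hist1h3c and Hist1h4a were at their 3′ ends, and the oocyte linker histone gene H1foo was 11664 bp away. The rows of Hist1h3c and Hist1h4a lay 479 and 454 bp from their 5′ ends, with CpG ratios of 0.875 and 0.865.

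In the germline lists the piRNA and germ cell RNA list had the highest share of the 43 by name, 10 of 53 (18.9%, 10.6% to 31.4%), with 9 at both ages. By position or with own-start genes alone it was 6 of 53 (11.3%). The SWI/SNF and chaperone lists were higher in both counts, and by position so was the proteasome list (11.5%). The piRNA list's members were as follows. The own-start genes included Adad1 and Adad2, testis double-stranded RNA-binding proteins, Drosha, which cuts primary microRNAs, Cpeb4, which binds polyadenylation elements, and Henmt1, the piRNA methyltransferase. Drosha had 4 rows at 12824804, 12824809 and 12824815 on chromosome 15, each an annotated 5′ end. Dicer1 had 9 rows, 7 of them at 104763114 on chromosome 12, 11146 bp from its start. Tdrd6, a chromatoid body protein, had 7 rows at its 3′ end. Ago3 and Piwil4 were listed 3342 and 16029 bp from their starts.

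Spermatid genes had 9 of 66 (13.6%, 7.34% to 23.9%), with 7 at both ages and 0 at P28.5 only. Of the 9, 4 were own-start genes, among them Ift88, for intraflagellar transport, with 5 rows at 57424069 and 57424071 on chromosome 14, and Catsperb, with rows at 101404645 and 101404673 on chromosome 12 and CpG ratios of 0.0853 and 0.0878. Tnp1 and Spaca1, of the acrosome, were at their 3′ ends. Hils1, a spermatid linker histone, was listed 4798 bp and Odf4, of the outer dense fibre, 7245 bp from its start. The list of Tex, Spata, Spag, Tssk and Tsga genes had 13 of 147 (8.84%) against 3.40% at both ages, and the cilium list 11 of 118 (9.32%), with Bbs9, Iqcb1 and Dnah10 at their own starts. The somatic testis list had 2 of 40: Cldn11, the Sertoli cell claudin, was 52934 bp and Hsd17b3, the Leydig cell enzyme of testosterone synthesis, 32948 bp from its start. Of the retinoic acid list 1 of 35, Cyp26c1, was named.

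Among housekeeping lists, chaperones had the highest share, 15 of 92 (16.3%, 10.1% to 25.2%), among them the J-domain genes Dnajc5b, Dnajc14 and Dnajc4, beside 23.9% at both ages. The respiratory chain list had 16 of 118 (13.6%), of which 6 were own-start genes. Translation factors and tRNA synthetases had 5 of 112 (4.46%, 1.92% to 10.0%) against 25.9% at both ages, and of the members Pars2, Farsa and Rars2 were at their own starts. Cytosolic ribosomal proteins had 7 of 86 (8.14%), including Rpl21, Rpl28, Rpl36 and Rps21, and splicing genes 14 of 143 (9.79%) against 28.7%. Ubiquitin ligases had the most members of these lists, 37 of 366 (10.1%).

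Several lists of membrane, matrix and tissue genes had few genes at both ages and held members at P28 only. Ion channels had 25 of 254 (9.84%, 6.76% to 14.1%) against 4 at both ages and 1 at P28.5 only. Counted by position their share was 5.12%, under the 6.37% of all protein-coding genes, and with own-start genes alone 3.94%, under 5.17%. Kcnt1 and Kcnh6, both potassium channels, were listed at their own starts with 10 and 8 rows, and Kcnj11 with 18 rows at 3571 bp or more from its start. Cadherins had 8 of 110, collagens with laminins and integrins 11 of 136, and keratins with beta-defensins 9 of 180, each with 0 at both ages and 0 at P28.5 only. A count of 0 allows shares of up to 2.73%, 2.21% and 1.67% of these lists. G protein coupled receptors had 21 of 283 against 5, homeobox and other developmental regulators 24 of 280 (8.57%) against 9, and chemokines with interleukins and interferons 29 of 267 (10.9%) against 10. By position the shares were 3.64% for cadherins, 5.71% for homeobox and developmental regulators and 7.49% for chemokines, and with own-start genes 3.64%, 4.29% and 5.99%. Collagens with laminins and integrins were at 6.62% in both counts, above the 6.37% and 5.17% of all protein-coding genes. G protein coupled receptors were at 5.65% and 4.95%. Keratins with beta-defensins were at 3.33% and 1.11% in these counts.

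The place of the rows is given by group of lists. Of the tissue group 22 of 50 (44.0%) and of the membrane group 72 of 136 (52.9%) were own-start genes, against 71.4% in the division and 69.9% in the housekeeping group. Of 39 odorant and vomeronasal receptor members, 2.67% of the 1463 annotated, 18 were at a minus-strand 3′ end and 17 at their own start. Krt16, an epidermal keratin, had both of its rows at its 3′ end, at 100246091 on chromosome 11.

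At own-start positions the CpG ratio differed among the list groups. Its median was 0.730 over 35 division genes, 0.868 over 13 chromatin genes and 0.728 over 116 housekeeping genes, 0.665 over 38 regulators, and 0.575 over 26 germline genes, 0.377 over 72 membrane genes and 0.304 over 22 tissue genes. The corresponding medians at both ages were 0.814, 0.891, 0.822, 0.775, 0.755, 0.796 and 0.750, a narrower range. The last 2 of these, for membrane and tissue genes, were over 31 and 14 genes. At P28.5 only the germline median was also low, 0.588 over 7 genes. There the division, chromatin, housekeeping, membrane and regulator medians lay between 0.751 and 0.877. A ratio of at least 0.6 was found at 77.1% of the division members and 9.09% of the tissue members.

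By chromosome, the share of protein-coding genes named at P28 only ran from 6.81% (48 of 705, 5.17% to 8.91%) on chromosome 19 to 11.3% (147 of 1301, 9.69% to 13.1%) on chromosome 4. On the X chromosome it was 0 of 963, for which the upper limit is 0.312%, and on the Y chromosome 1 of 253. Members were found on every autosome. The intervals of chromosomes 2 (8.47% to 11.2%), 3 (8.62% to 12.4%) and 4 lay above the 8.33% of all protein-coding genes, a share that the X and Y chromosomes lower. An autosomal background was not computed, so these chromosomes are not said to stand out.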

How the data were processed

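CUT&RUN reads of ARID2 libraries at P28 and P28.5 were trimmed, aligned to mm10 with Bowtie2 and processed with SAMtools and deepTools by the authors. They took the log2 ratio to the control library, averaged the libraries of an age and clustered RefSeq TSSs by k-means. The deposited lists hold the positions and symbols of cluster-1 TSSs, with no signal, score or count per library. Depth and the signal tracks of single libraries were not analysed here, so no value has a spread between replicates.

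Positions were compared with 119253 transcripts of 49597 genes in RefSeq on GRCm38.p6, the assembly behind mm10, whose coordinates are 1-based. Symbols were matched as written or by a synonym of 1 gene. A window of 2000 bp defined near, CpG ratios used 500 bp on either side, and a ratio of 0.6 marked CpG-rich sequence. No test was run, since the lists chose the members, and shares have 95% Wilson intervals. For a share of 0 the limit was 3 counts. Helper functions were tested on simulated data. Python 3.11.15, numpy 2.4.6 and matplotlib 3.10.9 were used.

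The members and gene lists were chosen with earlier results of these data known. Genes were named by a rule: genes the study ties to ARID2, list members with the most rows (up to 10 in division, chromatin and germline lists and 4 in others), members with the most rows or positions, and those nearest to or farthest from a P28.5 position. Within a list the text gives a choice of these, and members outside the rule are marked or shown as P28.5 neighbours. Some genes that the rule names are not reported here. BRG1 libraries were not analysed here.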

Additional observations from a re-analysis of the deposited data

How the results depend on the processing

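No paired analysis was possible because the lists hold no value per library, and no library was left out, since signal tracks of single libraries were not analysed here. The number of P28-only genes was 2124 without regard to case, 2123 with synonyms resolved and 2099 without genes near a P28.5 position, but 1347 with a row within 2000 bp of the own 5′ end. The share of member positions near a 5′ end, 76.6%, was 71.6%, 73.7% and 82.4% with windows of 500, 1000 and 5000 bp, 66.1% with curated transcripts, 67.4% with the named gene alone and 71.0% over rows. The share of members near a P28.5 position, 1.18%, was 0.753% within 500 bp and 1.98% within 5000 bp. The plus-strand share became 9.78% and the minus-strand share 2.96% when genes were counted by position. The shares of the lowest and highest CpG quintiles became 5.93% and 11.7% for plus-strand genes, and 2.48% and 5.63% for own-start genes, a choice made after the data had been seen. Of the 43 lists, 25 had a share above that of all protein-coding genes, and 24, 27 and 28 did for plus-strand genes, by position and for own-start genes (the latter also added later). The lists do not give the depth behind a position. The study reported read counts for each library and far more ARID2 peaks at P28 than at P28.5. A smaller part of the enriched starts overlapped a peak at P28.5, and these values did not enter here.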
